A study of Homo sapiens with 6 samples.

Results

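The nuclear-encoded subunits of the respiratory chain were examined in cultures differentiated towards pancreatic progenitors from Ff-I01s01, a wild-type human induced pluripotent stem cell line. Members were the protein-coding rows of the deposited table whose symbols begin with NDUFA, B, C, S or V and a number, with UQCR, with COX4 to COX8 or with ATP5, or are SDHA to SDHD. This took 90 of the 58735 genes: 37 in complex I, 4 in complex II, 9 in complex III, 19 in complex IV and 21 in complex V. NDUFA4 and its paralogue NDUFA4L2 were placed with complex IV. Subunits that the naming rule does not take, such as NDUFAB1 of complex I and CYC1 of complex III, were left out. From day 6 until day 8, in a step the labels name S3, cells were given 2 µM K-3 (K-3, n = 3 libraries) or taken through the same step without it (Control, n = 3). K-3 is a code name that the labels do not explain, and the stated question was how it affects differentiation, read from the transcriptome at the progenitor stage. The cells are all of the same line, and nothing in the labels says that libraries of a group came from separate cultures, so each p-value reflects variation among libraries that could be technical only.

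The respiratory chain sits in the inner mitochondrial membrane. Complexes I and II pass electrons from NADH and succinate to ubiquinone, complex III passes them to cytochrome c, and complex IV passes them to oxygen. The proton gradient that complexes I, III and IV build drives complex V, the ATP synthase. All complexes except complex II also hold subunits encoded by the mitochondrial genome, so their assembly draws on transcripts of both genomes. In many cells the nuclear genes are activated by NRF1 and by the ETS factor GABPA, which bind close to their transcription starts.

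None of the subunit genes changed with K-3 past the test. Values were the authors' deposited FPKM, which are fragment numbers scaled by gene length and sequencing depth. The limma test used log2(FPKM + 1) of genes whose 6-library mean reached 1 FPKM, with Benjamini-Hochberg adjustment over all 12989 genes tested. Of the 90 members, 77 reached that level; 0 were called higher and 0 called lower at an adjusted p under 0.05, where 2.04% of all tested genes were called (148 higher and 117 lower). Before adjustment, 5 subunits were higher and 2 lower with a p under 0.05, which is 9.09% of the 77, where 22.1% of all tested genes had such a p. The smallest adjusted p of a subunit in limma was 0.138, for UQCR11. On whole fragments derived from the FPKM, limma voom called 0 subunits too, where it called 6.33% of all genes. Array quality weights called 2 subunits, NDUFB10 and UQCRB, both higher with K-3, where they called 16% of all genes.

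The estimates were small and mostly positive. The median log2 fold change of the 77 tested subunits was 0.06, and 64 of them, 83.1%, lay above 0. Over all tested genes the median was 0.01 and 54.6% lay above 0. Under 3 other scalings of the libraries, 60 to 63 subunits lay above 0. By complex the medians were 0.05 for complex I, 0.02 for complex II, 0.08 for complex III, 0.06 for complex IV and 0.06 for complex V. Without Control replicate 1 the median of all subunits was 0.10, and leaving out either K-3 replicate 3 or Control replicate 3 gave 0.03. For 72 of the 77 subunits the 95% interval of the log2 fold change lay within 0.32 of 0. The intervals of NDUFA13, COX8A, ATP5F1D, ATP5IF1 and ATP5S reached beyond it. Adding 1 to each FPKM understates changes of low members, so for those the intervals are too narrow as bounds on the fold change. With 0.1 added instead, the log2 fold change was -0.36 for NDUFA13 and -0.17 for ATP5S.

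**Figure D1:**
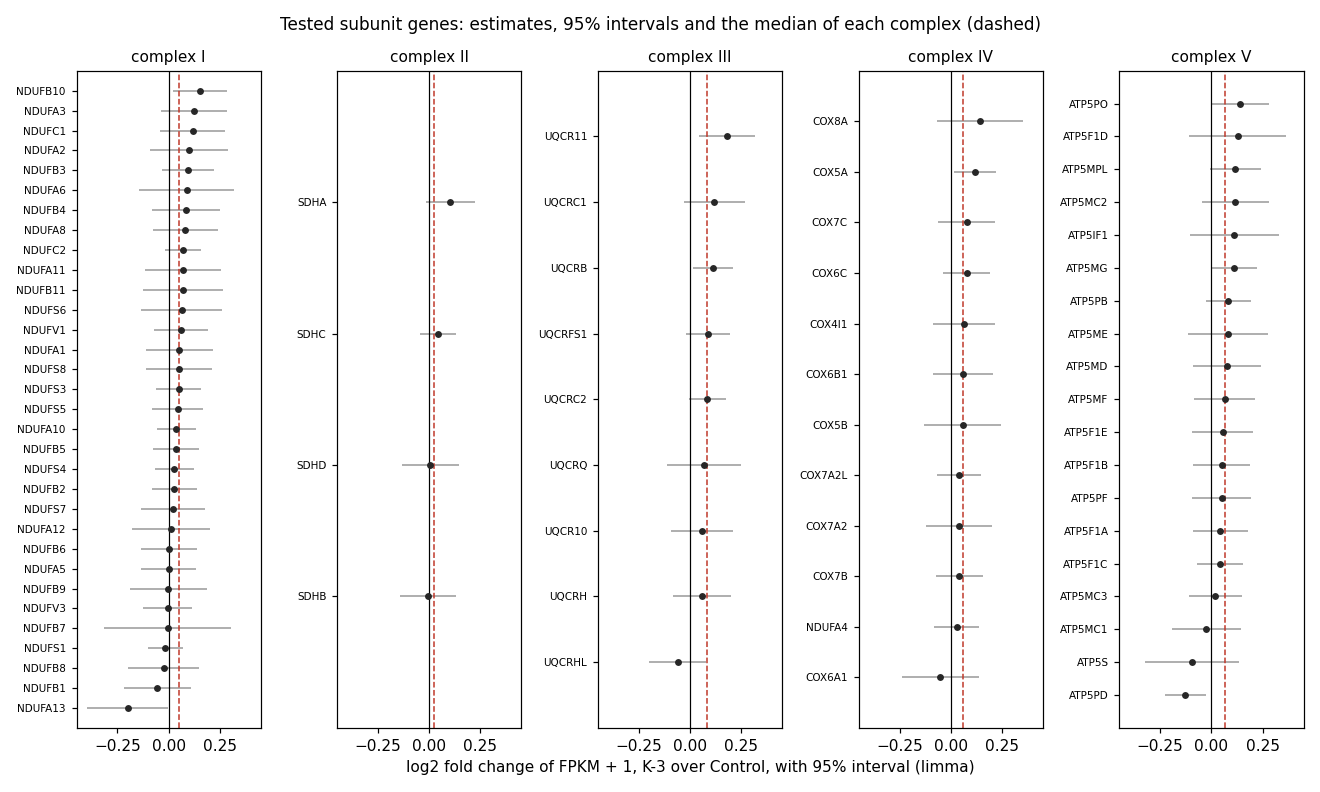
Log2 fold change of FPKM + 1, K-3 over Control (horizontal axis), for 76 tested subunit genes, in 1 panel per complex; points are limma estimates, lines are 95% intervals and the dashed line is the median of the complex. Of the 76 points 63 lie above 0, NDUFA13 is lowest at -0.20 and UQCR11 highest at 0.18.

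Gene length moved with these estimates. Tested subunit genes had a median length of 2475 bases, against 5151.5 bases for all tested protein-coding genes, and 43 of the 77 had at most 2991 bases, as did 2239 protein-coding genes. The median log2 fold change was 0.06 over these 43 subunits and also 0.06 over the 2239 genes. Of the 43, 35 lay above 0, and of the 2239, 69.5%. From 2992 to 4408 bases the median was 0.08 over 14 subunits and 0.04 over protein-coding genes of that length. From 4409 to 6002 bases it was 0.05 over 9 subunits and 0.02 over such genes. From 6003 to 8326 bases it was 0.02 over 3 subunits and 0.004 over such genes. Of 8329 bases or more it was 0.04 over 8 subunits, and -0.02 over 2235 protein-coding genes. When the dependence on length was removed from each library, the median of all subunits was 0.02 and 50 of the 77 lay above 0. Whether length accounts for the direction was not tested.

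The 6 libraries of the series held 41876557 to 50245547 fragments assigned to genes with K-3 and 35371195 to 38809532 in Control. No pair of libraries agreed within sampling noise (chi-square per degree of freedom of at least 8.29). The 9 pancreatic progenitor markers all averaged at least 1 FPKM and summed to 492 to 511 FPKM with K-3 and 428 to 465 FPKM in Control. The highest of the 9 were GATA4, GATA6 and FOXA2, averaging 163, 116 and 105 FPKM over the 6 libraries. PDX1 averaged 18.3 FPKM and SOX9 4.39 FPKM, so these sums say little about them. Hepatic markers were present too, at 2678 to 2834 FPKM with K-3 and 2798 to 3104 FPKM in Control. Of 6 pluripotency markers LIN28A, DPPA4 and TDGF1 averaged at least 1 FPKM, and NANOG and SOX2 lay under 0.1 FPKM. POU5F1 averaged 0.223 FPKM. Sums for these 6 were 359 to 365 FPKM with K-3 and 359 to 391.6 FPKM in Control, nearly all of it LIN28A, which averaged 353 FPKM. Definitive endoderm markers summed to 31.6 to 38.0 FPKM with K-3 and 32.7 to 36.9 FPKM in Control, intestinal ones to 39.5 to 41.5 and 33.6 to 38.9 FPKM, and mesenchymal ones to 25.5 to 28.2 and 24.0 to 26.3 FPKM. Neural markers summed to 7.68 to 8.47 FPKM with K-3 and 7.53 to 8.14 FPKM in Control. In bulk RNA a change in the mix of cells and a change in RNA per cell cannot be told apart.

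The promoters are shown because they hold the motifs named above, or, for COX6A2, because it belongs to a barely detected muscle isoform of an expressed subunit. Each runs 5′ to 3′ on the gene's own strand from 250 bases before to 30 bases after the start, from RefSeq on GRCh38.p14. Capitals mark CCGGAAG, a core of the ETS site that GABPA binds, and a 10-letter core of the NRF1 site, which is the first run of capitals in SDHD. Both were searched on both strands, as these exact letters only. Variant forms of the NRF1 and ETS sites were not searched and stay in lower case, in UQCR11 as in the others. The counts below are therefore of exact matches, not of all possible sites.
SDHD, chr11:112086623-112086902, + strand: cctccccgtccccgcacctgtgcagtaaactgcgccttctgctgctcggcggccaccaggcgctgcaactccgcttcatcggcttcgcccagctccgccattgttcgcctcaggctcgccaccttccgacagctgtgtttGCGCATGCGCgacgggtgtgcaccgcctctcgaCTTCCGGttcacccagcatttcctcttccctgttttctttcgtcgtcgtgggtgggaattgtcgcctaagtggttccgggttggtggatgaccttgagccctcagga
UQCR11, chr19:1605433-1605712, - strand: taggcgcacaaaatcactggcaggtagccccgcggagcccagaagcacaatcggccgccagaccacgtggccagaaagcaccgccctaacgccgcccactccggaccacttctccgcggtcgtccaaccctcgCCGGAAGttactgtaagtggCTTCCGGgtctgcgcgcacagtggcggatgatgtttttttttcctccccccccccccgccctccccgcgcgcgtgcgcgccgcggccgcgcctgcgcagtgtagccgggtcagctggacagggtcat
ATP5PF, chr21:25735025-25735304, - strand: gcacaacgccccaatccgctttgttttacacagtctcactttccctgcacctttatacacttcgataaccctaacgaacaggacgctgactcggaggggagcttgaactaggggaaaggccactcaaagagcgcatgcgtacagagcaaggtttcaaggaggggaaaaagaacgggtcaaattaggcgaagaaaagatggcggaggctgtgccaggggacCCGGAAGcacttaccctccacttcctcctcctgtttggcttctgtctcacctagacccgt
COX6A1, chr12:120437863-120438142, + strand: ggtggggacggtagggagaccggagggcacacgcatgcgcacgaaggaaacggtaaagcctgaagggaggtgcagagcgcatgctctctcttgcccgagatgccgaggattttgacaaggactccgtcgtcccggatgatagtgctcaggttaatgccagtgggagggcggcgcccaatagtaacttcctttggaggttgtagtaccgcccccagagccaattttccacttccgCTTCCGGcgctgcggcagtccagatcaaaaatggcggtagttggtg
COX6A2, chr16:31428331-31428610, - strand: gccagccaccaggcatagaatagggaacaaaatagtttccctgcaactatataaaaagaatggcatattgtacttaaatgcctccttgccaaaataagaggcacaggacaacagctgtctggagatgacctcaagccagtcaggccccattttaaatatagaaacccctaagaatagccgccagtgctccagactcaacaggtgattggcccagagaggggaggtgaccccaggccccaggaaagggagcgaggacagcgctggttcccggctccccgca
In SDHD the NRF1 letters begin 110 bases before the start and the ETS letters 77 bases before it, and UQCR11 holds the ETS letters at 2 places, 117 and 97 bases before its start. ATP5PF lies head to head with GABPA itself, which covers 20.2% of its exon bases on the opposite strand. Promoters of 68 members were found in the RefSeq table, by gene identifier or symbol, taking the first listed start. Of the 60 that averaged at least 1 FPKM, 4 held the NRF1 letters and 19 the ETS letters in the 300 bases from 250 before to 50 after the start. That is 6.67% and 31.7%, where 1.36% and 10.7% of all 27305 RefSeq promoters held them. Unlike the 60, those were chosen by neither level nor gene type, so the sets differ in more than membership. Over all 68 members, whatever their level, the shares were 5.88% and 27.9%. Of the 8 with lower levels, 0 held either. These 8 include NDUFV2, NDUFA7 and NDUFC2-KCTD14, which share at least 40% of their principal transcript with other genes. Whether their low levels reflect weak transcription was not tested. Across the 60, the ETS letters stood in 5 of 28 promoters of complex I, 2 of 3 of complex II, 3 of 7 of complex III, 5 of 10 of complex IV and 4 of 12 of complex V. CG dinucleotides numbered 22.5 in the median promoter of these 60 genes and 14 in the median of all promoters. A match of letters does not show that a factor was bound, and the lack of an exact match does not show that a site was absent.

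The levels spanned a wide range within each complex. Over the 6 libraries, 50 members averaged at least 10 FPKM and 4 at least 100 FPKM: ATP5F1B, NDUFS5, UQCRH and COX7C. Tested members ranged from 1.03 to 250 FPKM in complex I, 7.57 to 11.2 FPKM in complex II, 2.87 to 116 FPKM in complex III, 7.11 to 104 FPKM in complex IV and 1.09 to 291 FPKM in complex V. Lengths in the table are all annotated exon bases of a gene, and for 39 of the 90 members this was over 2 times the length of the principal transcript. Levels between genes therefore depend on the length used. Per base of the principal transcript instead, the highest members were ATP5F1B (367 FPKM), COX4I1 (302 FPKM), UQCRH (269 FPKM) and NDUFS5 (250 FPKM). This assigns all fragments of a gene to 1 annotated transcript, the longest where candidates tied, such as 5818 bases for ATP5F1A. The ranking depends on that choice.

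**Figure D2:**
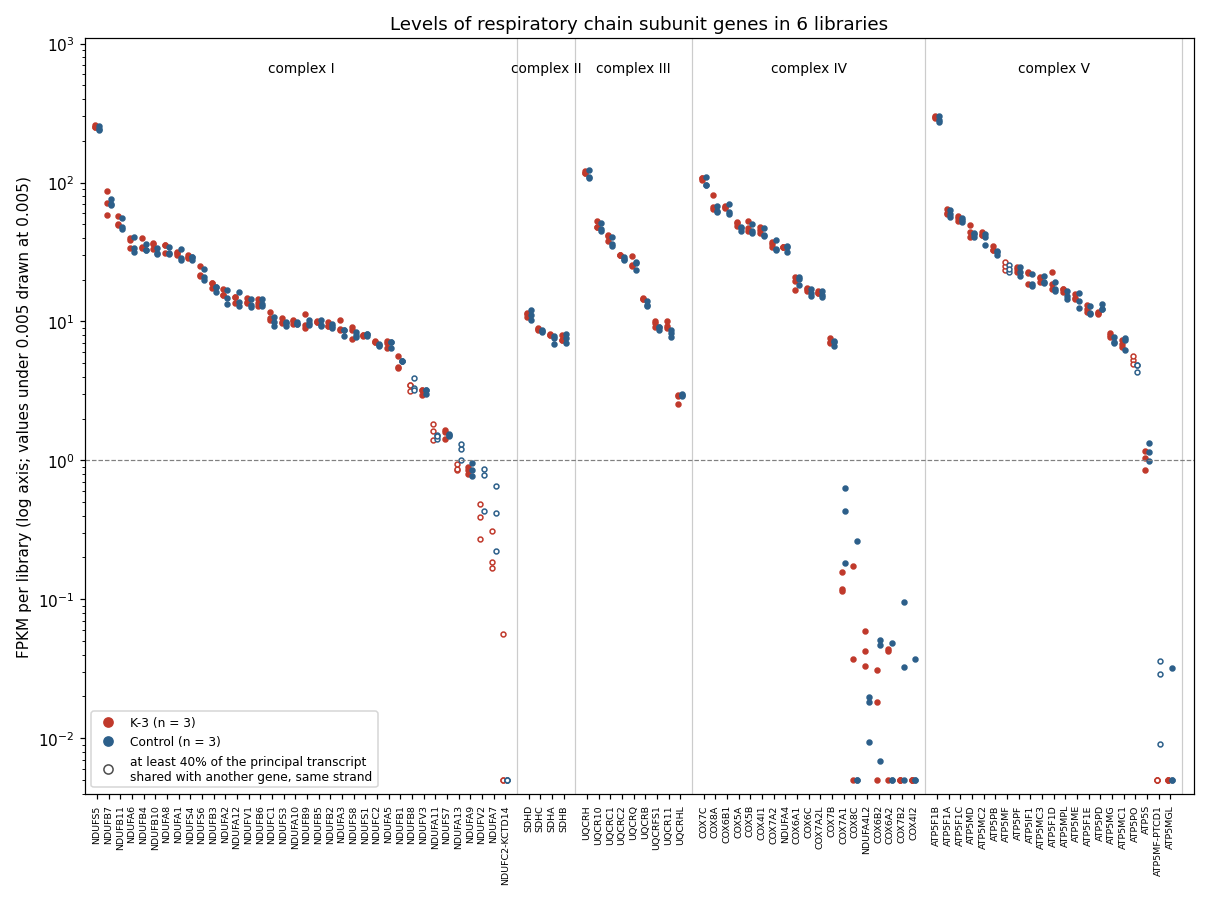
FPKM of 89 subunit genes (vertical axis, logarithmic) in each of the 3 K-3 libraries (red) and 3 Control libraries (blue), ordered by level within each complex; the dashed line marks 1 FPKM and values under 0.005 FPKM are drawn at 0.005. Open points are genes with at least 40% of their principal transcript annotated in another gene on the same strand, and 8 of these 9 average below 5 FPKM.

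In complex I, the core subunits that carry electrons from NADH towards quinone did not pass the test. NDUFV1, which carries the flavin that takes electrons from NADH, had 13.7, 13.7 and 14.8 FPKM with K-3, against 14.4, 13.2 and 12.7 FPKM in Control (log2 fold change 0.06, 95% interval -0.07 to 0.19). NDUFS1, the large iron-sulfur subunit, had 7.98, 7.90 and 7.98 FPKM with K-3, against 8.07, 7.90 and 8.18 FPKM in Control, with an interval of -0.10 to 0.07. The groups overlapped for both genes. NDUFS3, NDUFS7 and NDUFS8, further core subunits, had log2 fold changes of 0.05, 0.02 and 0.05. NDUFS3 averaged 10.1 ± 0.5 FPKM with K-3 and 9.69 ± 0.37 FPKM in Control, NDUFS7 1.56 ± 0.13 and 1.52 ± 0.03 FPKM, and NDUFS8 8.40 ± 0.82 and 8.06 ± 0.30 FPKM (SD, n = 3 each).

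Among the accessory subunits of complex I, NDUFB10 had the highest log2 fold change, 0.15 (95% interval 0.02 to 0.28, adjusted p = 0.177 in limma). It had 33.3, 35.9 and 37.0 FPKM with K-3, against 33.6, 30.8 and 30.7 FPKM in Control. Only Control replicate 1 reached into the K-3 range. NDUFA3 followed at 0.12, with 9.28 ± 0.84 FPKM with K-3 and 8.42 ± 0.53 FPKM in Control (SD, n = 3 each). NDUFB1 lay at -0.05, with 4.98 ± 0.58 FPKM with K-3 and 5.19 ± 0.04 FPKM in Control. NDUFS5, the most abundant transcript of the complex, had 250, 253 and 259 FPKM with K-3, against 257, 240 and 241 FPKM in Control. The groups overlapped in all of these.

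NDUFA13, also known as GRIM-19, was the lowest of all tested subunits. It had 0.858, 0.870 and 0.938 FPKM with K-3, against 1.01, 1.198 and 1.31 FPKM in Control. The groups did not overlap, and the log2 fold change was -0.20 (SE 0.08, adjusted p = 0.224 in limma). Its K-3 mean lay below 1 FPKM, so it reached the test through its Control values. NDUFA13 also belongs to a set of subunits whose counts overlap another gene.

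Several complex I subunits were listed at unusually low levels beside their partners. NDUFV2, the iron-sulfur partner of NDUFV1, had 0.487, 0.392 and 0.271 FPKM with K-3, against 0.435, 0.874 and 0.780 FPKM in Control, from 144 and 213 fragments. NDUFA7 had 0.167, 0.311 and 0.185 FPKM with K-3, against 0.222, 0.419 and 0.649 FPKM in Control. NDUFA9 averaged 0.849 ± 0.0516 FPKM with K-3 and 0.859 ± 0.0895 FPKM in Control (SD, n = 3 each). All 3 lay below the minimum for the test.

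Much of these genes is also annotated as part of another gene. In GENCODE release 29, 82.9% of the principal transcript of NDUFV2 is also exon of AP005263.1 on the same strand, a gene with a mean of 0 FPKM here. The shares were 75.9% for NDUFA7 (AC010323.1), 71.7% for NDUFB8 (AL133352.1), 67.0% for NDUFA11 (AC024592.3) and 44.1% for NDUFA13 (AC011448.1). In complex V, ATP5PO, the stalk subunit that confers oligomycin sensitivity, shared 70.3% and ATP5MF 46.2%. Counting also the readthrough entries NDUFC2-KCTD14 and ATP5MF-PTCD1, 9 members shared at least 40%, and their median level was 1.03 FPKM, against 14.65 FPKM for the other 81. ATP5MF, at 24.6 FPKM, was the exception above 5 FPKM. These are deposited levels and depend on the length used. Per base of the principal transcript, NDUFA11, NDUFB8, ATP5PO and ATP5MF stood at 13.9, 10.2, 17.8 and 184 FPKM. NDUFA13, NDUFV2 and NDUFA7 stood at 2.82, 1.57 and 0.765 FPKM. NDUFA9 shared 11.8% of its principal transcript and NDUFV3, at 3.14 FPKM, shared none. No source used here says how fragments falling on 2 genes were counted, and the part that overlap plays in these levels was not tested. NDUFA7, NDUFA9, NDUFA11, NDUFB8, NDUFV3 and ATP5MF were named after their values were seen.

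In GRCh38, NDUFV2 (ENSG00000178127) lies at chr18:9102630-9134345 and NDUFA13 (ENSG00000186010) at chr19:19515736-19529054, both on the + strand.

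Complex II is the only complex encoded wholly in the nucleus, and none of its 4 subunits passed the test. SDHA, the flavoprotein that oxidizes succinate, had 8.02, 8.03 and 8.16 FPKM with K-3, against 7.89, 6.89 and 7.58 FPKM in Control. Its groups did not overlap, and its log2 fold change was 0.10 (95% interval -0.02 to 0.22, adjusted p = 0.290 in limma). SDHA has near-identical pseudogene copies, and the rows named after it held 63.1% as many fragments as SDHA itself. SDHAP3 had 10.9, 10.2 and 9.99 FPKM with K-3, against 10.1, 13.9 and 15.0 FPKM in Control, so the value of SDHA is uncertain. SDHB, the iron-sulfur subunit, averaged 7.56 ± 0.345 FPKM with K-3 and 7.59 ± 0.56 FPKM in Control (SD, n = 3 each). The membrane anchors SDHC and SDHD averaged 8.81 ± 0.12 and 11.2 ± 0.4 FPKM with K-3, and 8.54 ± 0.18 and 11.2 ± 0.9 FPKM in Control. The log2 fold changes were -0.00 for SDHB, 0.04 for SDHC and 0.00 for SDHD, and the intervals of all 4 subunits lay between -0.14 and 0.22.

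Complex III had the highest median of the complexes. UQCR11, a small accessory subunit, had 9.23, 9.01 and 10.2 FPKM with K-3, against 8.23, 7.77 and 8.67 FPKM in Control. Its groups did not overlap, and its log2 fold change of 0.18 (SE 0.06, 95% interval 0.05 to 0.32) was the highest of all tested subunits. UQCRB, another small subunit, had 14.6, 14.4 and 14.6 FPKM with K-3, against 14.0, 13.01 and 13.1 FPKM in Control (log2 fold change 0.11, adjusted p = 0.174 in limma). These groups did not overlap either. UQCRC2, a core protein of the matrix arm, had 29.9, 29.98 and 30.3 FPKM with K-3, against 29.2, 27.7 and 28.0 FPKM in Control, with a log2 fold change of 0.08. Its partner UQCRC1 averaged 40.5 ± 2.0 FPKM with K-3 and 37.3 ± 2.8 FPKM in Control (SD, n = 3 each; 0.12), and its groups overlapped. UQCRFS1, the Rieske iron-sulfur protein, averaged 9.64 ± 0.45 FPKM with K-3 and 9.02 ± 0.25 FPKM in Control (0.09).

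UQCRH, the hinge protein, was the most abundant transcript of complex III. It had 116, 121 and 116 FPKM with K-3, against 122, 110 and 107 FPKM in Control. UQCRHL, an intronless copy of it, stood at 2.94, 2.91 and 2.52 FPKM with K-3, against 2.93, 2.9997 and 2.92 FPKM in Control, and fragments of the pair can be misplaced. UQCRHL was the only tested member of complex III with a negative log2 fold change, -0.06. UQCR11 (ENSG00000127540) lies at chr19:1597172-1605490 on the - strand in GRCh38.

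In complex IV, the nuclear subunits that surround the catalytic core did not pass the test. COX5A, a matrix-side subunit, had 49.0, 51.5 and 51.9 FPKM with K-3, against 47.3, 45.0 and 47.8 FPKM in Control. Its groups did not overlap, and its log2 fold change was 0.12 (95% interval 0.02 to 0.22, adjusted p = 0.182 in limma). COX4I1 had 43.0, 45.5 and 48.3 FPKM with K-3, against 47.1, 42.1 and 41.6 FPKM in Control (0.06), and COX5B averaged 48.3 ± 4.3 FPKM with K-3 and 46.4 ± 3.8 FPKM in Control (SD, n = 3 each; 0.06). COX7C, the highest of the complex in deposited FPKM though below COX4I1 per base of the principal transcript, averaged 106 ± 1 FPKM with K-3 and 101 ± 7 FPKM in Control (0.08). COX8A had 64.5, 67.0 and 81.4 FPKM with K-3, against 67.8, 61.4 and 62.6 FPKM in Control (0.14), and only K-3 replicate 3 exceeded all Control values. COX6A1 was the only tested member of complex IV below 0, at -0.05, with 19.1 ± 2.0 FPKM with K-3 and 19.8 ± 1.3 FPKM in Control. NDUFA4, a subunit now placed in complex IV, averaged 34.3 ± 0.2 FPKM with K-3 and 33.6 ± 1.7 FPKM in Control.

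Each subunit of complex IV with tissue isoforms was carried by its general form. The heart and muscle form COX6A2 had 2 fragments in the K-3 libraries and 1 in Control, beside COX6A1 at 19.5 FPKM. The lung form COX4I2 had 0 fragments with K-3 and 1 in Control, beside COX4I1 at 44.6 FPKM. The K-3 count of 0 allows up to 0.0853 to 0.103 FPKM of COX4I2 in each library, taking 3 fragments per library and counting error only. The testis-type forms COX6B2, COX7B2 and COX8C had 9, 0 and 5 fragments with K-3 and 15, 4 and 5 in Control, beside COX6B1 at 65.1, COX7B at 7.11 and COX8A at 67.5 FPKM. COX6B1, COX7A2, COX7A2L and COX7B had log2 fold changes of 0.06, 0.04, 0.04 and 0.04. NDUFA4L2, a hypoxia-induced paralogue of NDUFA4, had 17 fragments with K-3 and 5 in Control. Its 0.0421, 0.0329 and 0.0592 FPKM with K-3 lay above the 0.00933, 0.0184 and 0.0198 FPKM of Control, at levels of a few fragments per library.

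COX7A1 is the muscle form of COX7A2. It had 0.157, 0.115 and 0.118 FPKM with K-3, against 0.182, 0.435 and 0.636 FPKM in Control, from 18 and 47 fragments. The groups did not overlap, but Control replicate 1 lay close to the K-3 libraries, and the gene was below the minimum for the test. With no minimum, its adjusted p in limma was 0.395. The striated muscle markers summed to 5.59 to 7.94 FPKM with K-3 and 7.95 to 9.19 FPKM in Control. Of these 6 markers only ACTC1 averaged at least 1 FPKM, and CKM, MYH6 and MYL2 lay under 0.1 FPKM. The part of muscle-type cells in the COX7A1 values was not tested.

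In complex V, the genes of the catalytic head did not pass the test. ATP5F1A and ATP5F1B, the alternating alpha and beta subunits, averaged 61.5 ± 2.3 and 295 ± 6 FPKM with K-3, and 59.7 ± 3.8 and 286 ± 16 FPKM in Control (SD, n = 3 each). ATP5F1C, the gamma subunit of the central stalk, averaged 55.5 ± 2.3 FPKM with K-3 and 53.9 ± 1.6 FPKM in Control. Their log2 fold changes were 0.04, 0.05 and 0.04. ATP5F1D, the delta subunit, had 17.2, 18.5 and 22.6 FPKM with K-3, against 19.2, 17.2 and 16.5 FPKM in Control (0.13, 95% interval -0.11 to 0.36), and only K-3 replicate 3 exceeded all Control values. ATP5IF1, the protein that blocks reverse rotation of the enzyme, had 18.8, 22.3 and 22.6 FPKM with K-3, against 21.9, 18.1 and 18.6 FPKM in Control (0.11).

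The peripheral stalk held both ends of complex V. ATP5PD, the d subunit, had 11.5, 11.8 and 11.3 FPKM with K-3, against 12.4, 12.3 and 13.3 FPKM in Control. All K-3 values were below all Control values, with a log2 fold change of -0.13 (SE 0.04, 95% interval -0.23 to -0.03, adjusted p = 0.154 in limma). Of its exon bases, 19.1% lie in other genes on the opposite strand, and no source used here says whether counting used strand. ATP5PO had 5.25, 4.94 and 5.60 FPKM with K-3, against 4.85, 4.88 and 4.33 FPKM in Control (log2 fold change 0.14, adjusted p = 0.229 in limma). All its K-3 values were above all Control values, and its level carries the double annotation described above. ATP5S, an accessory factor, stood near the minimum at 1.02 ± 0.16 FPKM with K-3 and 1.16 ± 0.18 FPKM in Control (SD, n = 3 each; -0.10). ATP5MGL, a retrocopy, had 0 fragments with K-3 and 1 in Control. ATP5PD (ENSG00000167863) lies at chr17:75038863-75046985 on the - strand in GRCh38.

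The rotor ring is built of subunit c, which ATP5MC1, ATP5MC2 and ATP5MC3 encode with different import signals. ATP5MC2 was the highest, at 41.9, 42.3 and 44.1 FPKM with K-3, against 42.6, 40.5 and 35.3 FPKM in Control. ATP5MC3 averaged 20.2 ± 0.8 FPKM with K-3 and 19.9 ± 1.3 FPKM in Control, and ATP5MC1 6.93 ± 0.37 and 7.08 ± 0.71 FPKM (SD, n = 3 each). Together they summed to 69.9 ± 1.5 FPKM with K-3 and 66.5 ± 4.9 FPKM in Control. Their log2 fold changes were 0.12, 0.02 and -0.02 for ATP5MC2, ATP5MC3 and ATP5MC1, and the groups overlapped for each.

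Across the 77 tested subunits, the K-3 and Control values did not overlap for 12. They were apart with K-3 higher for 10 (12.99%), where 15.4% of all tested genes were, and with K-3 lower for 2 (2.6%), where 12% of all tested genes were. Those higher included UQCR11, UQCRB, UQCRC2, COX5A, SDHA, NDUFC2, ATP5PO, ATP5MG and ATP5PB, and the 2 lower were ATP5PD and NDUFA13. The share with K-3 higher was thus close to that of genes in general.

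The level of the subunits varied within each group. Over the 77 tested subunits, mean deviations of log2(FPKM + 1) from the average of all libraries were -0.02, 0.02 and 0.08 in K-3 replicates 1, 2 and 3, against 0.04, -0.06 and -0.06 in Control replicates 1, 2 and 3. Control replicate 1 lay above K-3 replicates 1 and 2, so the groups overlapped. Within K-3, replicate 3 was the highest library for 55 of the 77 subunits (71.4%), where 39.7% of all tested genes were highest there. Within Control, replicate 1 was the highest for 57 (74%), where 45.5% of all tested genes were. Summed over all 90 members, the level was 2318, 2375 and 2496 FPKM with K-3, against 2438, 2219 and 2229 FPKM in Control. The range within each group was wider than the difference of the means, 2396 ± 91 FPKM with K-3 and 2295 ± 124 FPKM in Control (SD, n = 3 each). These fragments made up 0.574% to 0.603% of each K-3 library and 0.554% to 0.581% of each Control library.

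**Figure D3:**
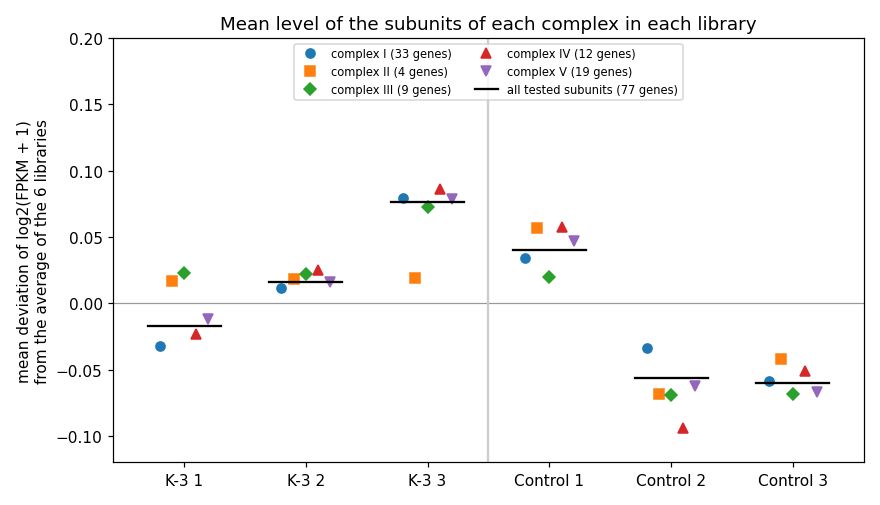
Mean deviation of log2(FPKM + 1) from the average of the 6 libraries (vertical axis) for the tested subunits of each complex (symbols) and for all 77 (black lines), in the K-3 libraries on the left and the Control libraries on the right. K-3 replicate 3 is highest at 0.08 and Control replicate 1 next at 0.04, and Control replicates 2 and 3 are lowest at -0.06.

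The mitochondrially encoded subunits did not follow this order. The 13 summed to 15889, 12249 and 8918 FPKM with K-3, against 15234, 15542 and 15608 FPKM in Control, with a median log2 fold change of -0.47, and 0 passed the test. K-3 replicate 3, highest for the nuclear subunits, was lowest for the mitochondrial ones and K-3 replicate 1 lay above all Control libraries. Their part in the nuclear values was not tested. MT-CO1, the catalytic subunit of complex IV, had 2548, 2034 and 1406 FPKM with K-3, against 2727, 3245 and 3358 FPKM in Control (log2 fold change -0.68, adjusted p = 0.135 in limma). COX5A and COX4I1, its nuclear neighbours in the enzyme, had 0.12 and 0.06. Among the other mitochondrial subunits of complex IV, MT-CO3 lay at -0.50 but MT-CO2 was level at -0.01. MT-CO2 had 2455, 2000 and 1644 FPKM with K-3, against 2418, 1830 and 1861 FPKM in Control. Of the 13, 12 lay below 0 and 1, MT-ND3, lay above at 0.25.

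**Figure D4:**
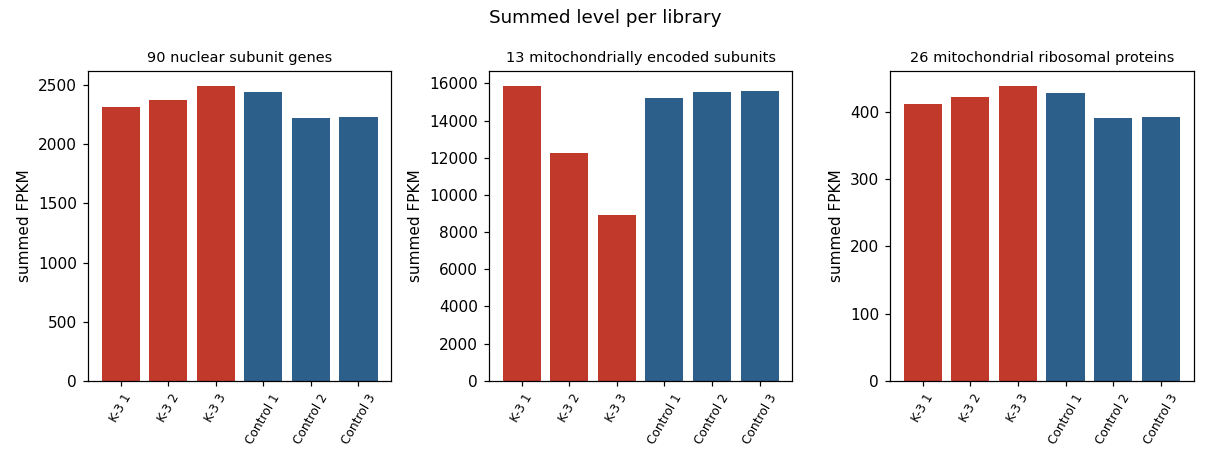
Summed FPKM per library (vertical axes from 0) of the 90 nuclear subunit genes, the 13 mitochondrially encoded subunits and 26 mitochondrial ribosomal proteins, in K-3 (red) and Control (blue) libraries. The nuclear sums vary from 2219 to 2496 FPKM, while the mitochondrial sum is 8918 FPKM in K-3 replicate 3 and at least 15234 FPKM in each Control library.

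Other gene lists were read from the same fit, in which 2.04% of all tested genes were called. Of 46 tested genes for assembly factors and cytochrome c, 0 were called in either direction, and the median log2 fold change was 0.04. The 4 with the smallest p-values were SDHAF3 (0.20), COA3 (0.20), NDUFAF2 (0.24) and SDHAF4 (0.19), with adjusted p-values of 0.101 to 0.134 in limma. Of 26 mitochondrial ribosomal proteins 0 passed (median 0.05), and their sum was likewise highest in K-3 replicate 3 and Control replicate 1. Of 17 genes of the tricarboxylic acid cycle 0 passed (median 0.04). Of 14 tested regulators of mitochondrial biogenesis 0 passed (median -0.02). Among these, NRF1 had 7.25 ± 0.47 FPKM with K-3 and 6.98 ± 0.23 FPKM in Control, GABPA 9.90 ± 0.305 and 10.1 ± 0.4 FPKM, and TFAM, the mitochondrial transcription factor, 16.3 ± 0.6 and 15.2 ± 0.4 FPKM (SD, n = 3 each). Of 19 glycolysis genes 0 passed (median 0.03, from -0.55 for SLC2A3 to 0.22 for HK2), and of 22 cytosolic ribosomal proteins 0 passed, with all 22 above 0 and a median of 0.13.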

How the data were processed

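Poly-A RNA of 6 libraries was sequenced as paired ends, per the labels' protocols, which describe both a directional and a non-directional kit without saying which was used. The authors deposited FPKM per gene; per the submitters' processing notes the genome was GRCh38 and the tools included DESeq2 1.20.0, HISAT2 2.0.5 and featureCounts 1.5.0-p3. All 58735 rows match GENCODE release 29 by position and exon length. FPKM times gene length gave whole fragments for 100% of values (tolerance 1e-06), so depth is known, and 1 kb of gene with 3 fragments equals 0.0591 to 0.0834 FPKM. Intervals cover counting error only where they rest on fragments.

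K-3 was compared with Control by limma 3.58.1 in R 4.3.3 on log2(FPKM + 1), which understates changes of low genes, for genes averaging at least 1 FPKM; the script was tested on simulated data. Python 3.11.15 with pandas 2.3.3, numpy 2.4.6, scipy 1.17.1 and matplotlib 3.10.9 made summaries. Members follow the naming rule in the report. Genes named in the text are members past the threshold, in each complex the 2 with the highest and the 2 with the lowest log2 fold change, listed core and catalytic subunits, isoform pairs, and the highest and lowest member of each complex by level. NDUFC2, UQCRB, ATP5MG, ATP5PB, ATP5PF, those so marked in the report, and the named genes of other lists were chosen after their values were seen. Members and lists were chosen with earlier results of these data known. Alternatives tried were the pseudocount, the filter, 3 scalings, length correction, array weights, voom, protein-coding genes alone, a replicate block and leaving out each library. The values of 1 member are not reported here; it stays in all counts, sums and medians.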

Additional observations from a re-analysis of the deposited data

How the results depend on the processing

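No subunit was called under any alternative except array quality weights, which called 2 higher (NDUFB10 and UQCRB, smallest adjusted p 0.0352 in limma); elsewhere the smallest adjusted p of a subunit ran from 0.0773 without Control replicate 1 to 0.294 with no filter. The calls over all genes depended on the setting. With no filter 0 genes were higher and 0 lower, at a mean of at least 5 FPKM 237 were higher, by voom 429 were higher and 393 lower, with array weights 1098 and 976, and among protein-coding genes alone 405 and 289. Leaving out each library gave 0 to 271 higher and 0 to 446 lower, namely 0 and 5, 0 and 0, and 0 and 3 for K-3 replicates 1, 2 and 3, and 260 and 446, 271 and 227, and 1 and 10 for Control replicates 1, 2 and 3. The cause was not tested. The replicate block gave 0 higher and 0 lower over all genes. The replicate numbers share no stated batch, their deviations correlated at -0.364, -0.0335 and -0.113, and no library correlated best with its own number.

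Among the genes named by the rules above, signs turned only near 0. Over all tested subunits, 16 changed sign with length correction. Leaving out K-3 replicate 3 changed the sign of 10, the most for any library left out. SDHD was -0.0021 without mitochondrial genes in the scaling, -0.013 by median of ratios without the subunits and -0.040 with length correction, and SDHB was 0.0021 with array weights. With length correction ATP5F1B was -0.00031, ATP5F1C -0.0089, COX5B -0.0013, COX6B1 -0.0049, COX7A2 -0.012, NDUFA4 -0.0056, NDUFS1 0.013, NDUFS5 -0.0091 and UQCRH -0.00075. Leaving out each library, the log2 fold change ran from -0.099 to 0.020 for ATP5MC1, -0.011 to 0.069 for ATP5MC3, -0.011 to 0.12 for COX5B, -0.11 to 0.029 for COX6A1, -0.0012 to 0.12 for COX7A2, -0.013 to 0.054 for NDUFA4, -0.0084 to 0.062 for NDUFS7, -0.051 to 0.042 for SDHB and -0.048 to 0.056 for SDHD. Depth limits members below 1 FPKM, of which COX7A1 rests on 18 fragments with K-3 and 47 in Control.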

Other observations

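Some low-level subunit genes stood highest in the same pair of libraries. NDUFV2, NDUFA7, NDUFA13 and COX7A1, a set put together after its values were seen, had their highest values in Control replicates 2 and 3. COX6B2 and ATP5MF-PTCD1 were highest there too, from 9 and 0 fragments with K-3 and 15 and 8 in Control. Several other low-level members did not share this order, or shared it only in part. NDUFA11, NDUFS7 and NDUFA4L2 were highest in K-3 replicate 3. NDUFA9 and ATP5S were highest in Control replicate 2 but had K-3 replicate 2 above Control replicate 3. NDUFB8, NDUFV3 and UQCRHL were also highest in Control replicate 2, with K-3 replicate 1 above Control replicate 3. Genes at 1 FPKM or more numbered 12778 to 12922 in the K-3 libraries, against 12840, 13406 and 13256 in Control replicates 1, 2 and 3. Control replicates 2 and 3 were each the lowest of the 6 libraries for 30 of the 77 tested subunits (39.0%), where Control replicate 2 was lowest for 20% and Control replicate 3 for 24.2% of all tested genes. The part of this difference between libraries in the low values was not tested.

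Pseudogenes of the subunits are many but mostly below 1 FPKM. Of the 90 members 45 have rows named as their pseudogenes, 159 rows in all, and 7 of these averaged at least 1 FPKM. For 2 members, SDHA and NDUFV2, these rows held over 10% as many fragments as the gene.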
